A study of Homo sapiens with 3 samples.

Results

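The genes described here are 9 components and regulators of the complement system, namely C1R, C1S, C3, C5, CFB, SERPING1, CD46, CD55 and CD59. They were taken by gene symbol from an expression table of 24254 symbols, and all 9 were found in it. The table holds mRNA sequencing of LX-2, an established line of human hepatic stellate cells, which are the mesenchymal cells of the liver sinusoid. There was 1 library for each of 3 conditions, so every difference below is between single libraries and has no replicate check. The vehicle library came from LX-2 cells without rhFGF19 (recombinant human fibroblast growth factor 19), and the other libraries from LX-2 cells given 50 ng/mL rhFGF19 (the lower dose) or 100 ng/mL (the higher dose). A stimulation of 24 h is recorded for the series. The descriptions of the rhFGF19 samples instead record 72 h and 73 h with the doses exchanged, and the doses used here are those of the sample titles.

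Values are FPKM, fragments per kilobase of transcript relative to all mapped fragments, which are scaled to transcript length and so allow levels of different genes to be set side by side. They summed to 302243 in vehicle, 276690 at the lower dose and 281606 at the higher dose, and hold no read counts, so the depth behind each value is unknown. The 9 genes together made up 59.4 FPKM in vehicle, 75.6 at the lower dose and 75.9 at the higher dose, or 0.0197%, 0.0273% and 0.0269% of the library sums. Where 3 values of a gene follow each other, they are for vehicle, the lower and the higher dose, and paired values are for the lower and the higher dose against vehicle. Fold changes are differences of log2(FPKM + 0.1), a scale that understates the change of low genes. A gene was counted as past 2-fold where the difference exceeded 1 in either direction, and the 12422 symbols whose mean over the 3 libraries reached 0.5 FPKM served as the background. Of the 9 complement genes, 8 had such a mean, and C5 did not.

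Complement is a cascade of plasma proteins that marks particles for uptake, recruits leukocytes and can lyse membranes. The classical pathway begins with the C1 complex and its proteases, the alternative pathway is driven by factor B, and both cleave C3 and then C5, each of which releases a small fragment that acts on leukocytes. Hepatocytes are the main source of the circulating proteins, while host cells of most tissues carry membrane regulators that stop the cascade on their own surface.

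The label of the cells was set against lists of cell type markers, of which the stellate and mesenchymal list was the most abundant. It had 12 of 13 genes in the table and 9 past the filter, and its summed level was 1094 FPKM in vehicle, 1107 at the lower dose and 1114 at the higher dose. VIM, an intermediate filament gene, was its most abundant gene at 439, 654 and 649 FPKM, whereas LRAT, which esterifies retinol in quiescent stellate cells, was listed at 0 in all 3 libraries, and COL1A2 reached only 0.14 FPKM beside 78.4, 108 and 104 for COL1A1. The nearly level sum joins genes that differed in direction, since TIMP1 (308, 184 and 193 FPKM), TAGLN (223, 118 and 126 FPKM) and THY1 (29.7, 20.6 and 21.1 FPKM) were highest in vehicle. Of the 8 hepatocyte genes 2 passed the filter, with summed levels of 11.4, 12.6 and 11.5 FPKM led by the protease inhibitor SERPINA1 at 8.93, 9.62 and 9.11. ALB, the albumin gene, was at 2.16, 2.49 and 1.89 FPKM. The macrophage and other blood cell list had 5 of 8 genes in the table and 4 past the filter, with sums of 53.4, 48.1 and 43.6 FPKM, of which the lysosomal gene CD68 made up 47.5, 44.2 and 39.8. Epithelial genes (3 of 4 found, 1 past the filter) summed to 7.09, 4.56 and 4.28 FPKM, led by KRT7, and the 4 endothelial genes to 0.50, 0.48 and 0.48, led by VWF. Because these are bulk samples, fewer cells of a type and less RNA per cell cannot be told apart.

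Promoters of the genes on which the results turn are shown first, to let the sequences of the genes with the larger and smaller differences be read side by side. Each is 250 bases before to 50 bases after a RefSeq gene start on GRCh38.p14, written 5′ to 3′ on the strand of the gene. RefSeq windows were matched by symbol for 6 of the 9 genes (C1R, C5, CFB, CD46, CD55 and CD59), 12 windows in all, and C1S, C3 and SERPING1 had no entry. Capitals mark matches on either strand to the motifs GAS (TTCNNNGAA, read by STAT proteins), ISRE core (GAAANNGAA), C/EBP (TTGCNNAA), AP-1 (TGANTCA) and kappaB. The CFB window lies at chr6:31945845-31946144 on the plus strand, that of CD46 at chr1:207751804-207752103 (plus), that of CD55 at chr1:207321428-207321727 (plus), that of C5 whose start equals the gene start in the expression table (C5 inner) at chr9:121050226-121050525 (minus), and the other one of C5 (C5 outer) at chr9:121074816-121075115 (minus). The outer window holds the reverse primer that the study lists for its chromatin assay of this promoter. By that assay the study reports binding of the transcription factor STAT3 there in LX-2 cells. The forward primer is in neither window, so the assayed stretch is not wholly in either.
CFB: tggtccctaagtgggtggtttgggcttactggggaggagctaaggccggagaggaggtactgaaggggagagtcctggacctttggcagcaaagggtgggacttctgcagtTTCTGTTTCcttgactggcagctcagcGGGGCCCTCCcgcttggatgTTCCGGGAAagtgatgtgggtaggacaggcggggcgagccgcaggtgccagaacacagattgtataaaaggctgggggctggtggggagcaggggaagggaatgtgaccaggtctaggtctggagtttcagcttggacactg
CD46: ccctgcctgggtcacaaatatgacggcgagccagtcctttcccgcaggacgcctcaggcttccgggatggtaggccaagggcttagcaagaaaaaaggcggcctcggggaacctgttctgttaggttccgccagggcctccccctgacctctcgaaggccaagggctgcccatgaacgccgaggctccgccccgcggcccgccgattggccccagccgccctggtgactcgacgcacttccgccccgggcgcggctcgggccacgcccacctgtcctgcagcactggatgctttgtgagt
CD55: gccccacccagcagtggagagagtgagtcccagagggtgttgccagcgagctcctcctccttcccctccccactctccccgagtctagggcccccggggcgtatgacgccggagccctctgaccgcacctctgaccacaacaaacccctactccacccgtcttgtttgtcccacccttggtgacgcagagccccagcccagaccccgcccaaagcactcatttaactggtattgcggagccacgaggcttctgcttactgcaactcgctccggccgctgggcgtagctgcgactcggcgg
C5 inner: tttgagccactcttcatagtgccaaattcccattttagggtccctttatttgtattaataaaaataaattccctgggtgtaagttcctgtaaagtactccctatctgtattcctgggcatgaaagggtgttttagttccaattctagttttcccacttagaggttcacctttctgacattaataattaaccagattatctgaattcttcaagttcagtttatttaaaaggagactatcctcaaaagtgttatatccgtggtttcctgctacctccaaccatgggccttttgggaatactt
C5 outer: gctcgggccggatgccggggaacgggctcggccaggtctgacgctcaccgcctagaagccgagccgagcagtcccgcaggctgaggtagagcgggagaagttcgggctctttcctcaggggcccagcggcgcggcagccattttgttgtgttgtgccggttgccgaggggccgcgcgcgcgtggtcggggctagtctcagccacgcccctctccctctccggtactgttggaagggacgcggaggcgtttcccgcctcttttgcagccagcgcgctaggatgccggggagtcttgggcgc

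In the CFB window the capitals are, in order, an ISRE core on the opposite strand that begins 139 bases before the gene start, a kappaB match 112 bases before it and a GAS match 92 bases before it, and none of these overlaps another. The printed windows of CD46, CD55 and C5 held no match to the 5 motifs, which says only that these letters are not in these windows. Among all 35116 RefSeq promoters of this length, 7.66% held a GAS match, 8.11% an ISRE core, 10.5% a C/EBP match, 7.71% an AP-1 match and 11.3% a kappaB match. GAS matches were present in C1R, CD59 and CFB, C/EBP matches in C1R and CD59, and AP-1 matches in CD59. Of the 12 windows, 4 held a GAS match, among them overlapping CD59 windows that share the same site. C/EBP matches were in 3 of the 12 windows, and AP-1, ISRE core and kappaB matches in 1 each. The CD46 and CD55 windows were rich in G and C (67.3% and 65%, with 25 and 19 CG dinucleotides), whereas the inner C5 window had 37% and 1 and the outer one 69.3% and 33. The mean over all promoters was 57.5%.

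Levels of the 9 genes spanned a wide range in LX-2 cells. In vehicle the order from high to low was CD59, CFB, C3, C1R, SERPING1, CD46, CD55, C1S and C5. In both rhFGF19 libraries CD46 stood 5th and SERPING1 6th, and the rest of the order was as in vehicle. CD59 lay at percentile 87.7 of the tested genes in vehicle and CFB at 73.0, whereas C1S lay at 7.82. No percentile is given for C5, because it did not pass the filter and a low one would follow from that.

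**Figure D1:**
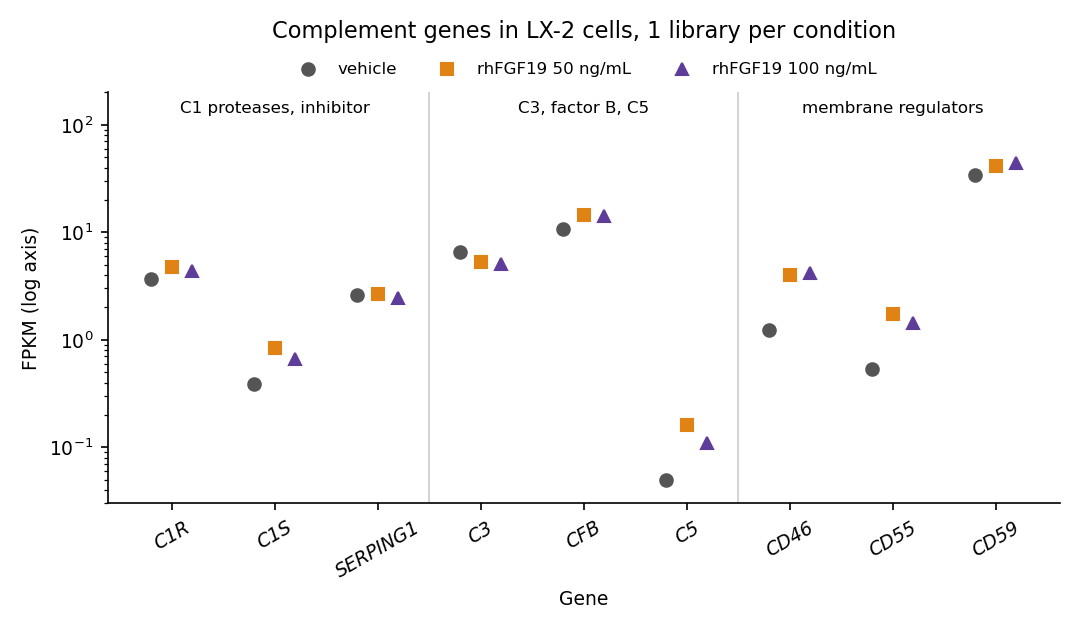
FPKM (log axis) of the 9 complement genes in the vehicle library (circles), at 50 ng/mL rhFGF19 (squares) and at 100 ng/mL (triangles), grouped by role, with 1 library per condition and no error bars. CD46, CD55 and C5 stand furthest from their vehicle points, followed by C1S, while CD59 is the most abundant of the 9 in each library and C5 the least, at 0.05 to 0.16 FPKM.

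C1R and C1S encode the serine proteases of the C1 complex, C1r activating C1s, which then cleaves the next components. C1R (ENSG00000159403, chr12:7080214-7092493, minus strand) had 3.69 FPKM in vehicle, 4.78 at the lower dose and 4.36 at the higher dose. Vehicle was thus the lowest and 50 ng/mL the highest library, with log2 fold changes of 0.36 and 0.23, although they were -0.30 and -0.43 with quantile normalization and -0.075 and -0.20 with the length trend removed. C1S (ENSG00000182326, chr12:6988259-7071032, plus strand) lies on the same chromosome, with 9181 bases between the end of C1S and the start of C1R. Its values were 0.39, 0.83 and 0.66 FPKM, again lowest in vehicle and highest at 50 ng/mL. The plain ratios to vehicle were 2.13 and 1.69. The log2 fold changes were 0.92 and 0.63, below the threshold, which the value at 50 ng/mL passed with a pseudocount of 0.01 (1.07) and with TPM (1.16), and that at 100 ng/mL was -0.11 with quantile normalization. The span of C1S, introns included, shares 30219 bases with that of LPCAT3 on the opposite strand, a gene at 15.0, 15.1 and 14.4 FPKM. Strand use is not stated, and the part of any shared transcribed sequence in the C1S values was not tested.

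SERPING1 encodes C1 inhibitor, the plasma serpin that inactivates C1r and C1s. SERPING1 (ENSG00000149131, chr11:57597387-57614848, plus strand) had 2.59 FPKM in vehicle, 2.65 at the lower dose and 2.44 at the higher dose. The 3 libraries were close to each other, and the log2 fold changes of 0.032 and -0.083 had no stable direction, running from -0.74 and -0.85 with quantile normalization to 0.16 and 0.016 with TPM. Within a library, the ratio of SERPING1 to the sum of C1R and C1S, which no constant scaling of the library changes, was 0.635 in vehicle, 0.472 at the lower dose and 0.486 at the higher dose. The ratio was thus higher in vehicle than in either rhFGF19 library. C1S to C1R was 0.106, 0.174 and 0.151, a rise that was turned with the GC trend removed, where the log2 fold changes of C1S were below those of C1R at both doses.

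C3 encodes the component on which all activation pathways converge. C3 (ENSG00000125730, chr19:6677704-6730562, minus strand) had 6.50 FPKM in vehicle, 5.31 at the lower dose and 5.07 at the higher dose. It was the only gene of the 9 that was lower than vehicle in both rhFGF19 libraries as deposited, with log2 fold changes of -0.29 and -0.35, and it was also below vehicle in every alternative run, between -0.80 and -0.14 at 50 ng/mL and between -0.86 and -0.22 at 100 ng/mL. C3 shares 649 bases with GPR108 on the same strand, which had 44.5, 25.8 and 27.4 FPKM, and the part of that overlap in the C3 values was not tested.

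CFB encodes factor B, the protease of the alternative pathway convertase. CFB (ENSG00000243649, chr6:31945650-31952084, plus strand) had 10.6 FPKM in vehicle, 14.6 at the lower dose and 14.03 at the higher dose. It was higher in both rhFGF19 libraries, by 0.45 and 0.40 on the log2 scale, and this direction held with each of the 3 scalings run but not after removal of the trend on transcript GC content described below. The ratio of CFB to C3 within a library was 1.64 in vehicle, 2.74 at the lower dose and 2.77 at the higher dose. With the GC trend removed the genes differed from vehicle by nearly the same amounts (-0.20 and -0.24 for CFB, -0.22 and -0.29 for C3), so that this rise was nearly absent. Over the 5 cascade components C1R, C1S, C3, C5 and CFB, the summed level was 21.3, 25.6 and 24.2 FPKM, of which CFB made up 50.0%, 56.8% and 57.9%.

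C5 encodes the component whose cleavage starts the terminal pathway and releases a chemoattractant for neutrophils. C5 (ENSG00000106804, chr9:120952335-121050275, minus strand) was listed at 0.05 FPKM in vehicle, 0.16 at the lower dose and 0.11 at the higher dose, far below the filter. Of the 3 values, that in vehicle was the lowest. A place below nearly all tested symbols follows from the filter, which those symbols passed and C5 did not. The plain ratios to vehicle were 3.2 and 2.2, and the rounding of the values to 2 decimals alone allows 2.82 to 3.67 at 50 ng/mL and 1.91 to 2.56 at 100 ng/mL. On the log2 scale the fold changes were 0.79 and 0.49 with the pseudocount of 0.1 and 1.5 and 1 with 0.01, so their size is set largely by the pseudocount. Their direction was turned with the length trend removed (-0.24 and -0.52) and with the GC trend removed (given below). These turned values also carry the effect of the pseudocount.

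CD46, CD55 and CD59 encode the membrane regulators. CD46 is the cofactor for cleavage of deposited C3 and C4 fragments, CD55 speeds the decay of the convertases, and CD59 blocks assembly of the membrane attack complex. CD46 (ENSG00000117335, chr1:207752054-207795513, plus strand) had 1.23 FPKM in vehicle, 4.03 at the lower dose and 4.16 at the higher dose. Both rhFGF19 libraries were above vehicle and close to each other, with log2 fold changes of 1.63 and 1.68. CD55 (ENSG00000196352, chr1:207321532-207386804, plus strand), which lies in the same region of chromosome 1, 365249 bases before CD46, had 0.53, 1.72 and 1.43 FPKM. It too was lowest in vehicle, with log2 fold changes of 1.53 and 1.28. As plain ratios to vehicle, CD46 was at 3.28 and 3.38 and CD55 at 3.25 and 2.70. With quantile normalization neither gene passed 2-fold, CD46 having 0.76 and 0.82 and CD55 0.69 and 0.45. Neither did with the length trend removed, where CD46 had 0.94 and 0.9985 and CD55 0.98 and 0.74, or with the GC trend removed (given below). With a pseudocount of 1, CD55 did not pass either (0.83 and 0.67).

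CD59 (ENSG00000085063, chr11:33703010-33736425, minus strand) had 33.8 FPKM in vehicle, 41.5 at the lower dose and 43.6 at the higher dose. It was higher in both rhFGF19 libraries by 0.30 and 0.37 on the log2 scale, a smaller difference than for CD46 and CD55, and was above vehicle with each of the 3 scalings run but below it with the length trend removed (-0.16 and -0.081) and with the GC trend removed (given below). The summed level of the 3 regulators was 35.5 FPKM in vehicle, 47.3 at the lower dose and 49.2 at the higher dose, and CD59 made up 95.05%, 87.8% and 88.6% of it. CD59 to CD46 was therefore 27.5 in vehicle against 10.3 and 10.5, and CD59 to CD55 was 63.7 against 24.1 and 30.5. With the GC trend removed the fold changes of CD59 stayed below those of CD46 and CD55, but by less than as deposited. With quantile normalization CD59 had 0.50 and 0.56, nearer to CD46 (0.76 and 0.82) and CD55 (0.69 and 0.45). At 100 ng/mL CD59 was then above CD55, so the fall of CD59 to CD55 was turned. CD46 to CD55 was 2.32, 2.34 and 2.91. CD59 shares 19447 bases with the listed gene AL049629 on the same strand, at 2.06, 2.20 and 5.30 FPKM, whereas CD55, C5 and SERPING1 overlap no other listed gene.

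Counted together, 2 of the 9 genes, CD46 and CD55, were more than 2-fold higher than vehicle at 50 ng/mL, where 39.5% of the tested symbols were, and 0 were more than 2-fold lower, where 1.75% of the symbols were. At 100 ng/mL the same 2 genes were higher and 0 lower, beside 38.6% and 1.47% of the symbols. The 2 comparisons share the vehicle library and are not independent. The median log2 fold change of the 9 genes was 0.45 at the lower and 0.40 at the higher dose, below the medians of 0.62 and 0.62 over all tested symbols. With the median ratio to vehicle set to 0 over the genes of at least 1 FPKM in every library, a smaller set than the tested symbols, the all-symbol medians were 0.40 and 0.40 and those of the 9 genes 0.22 and 0.17. This order was turned with quantile normalization (0.24 and 0.10 for the 9 genes, 0.10 and 0.085 for all symbols) and without a filter on the symbols (0.31 and 0.31 for all). By role, the 6 soluble proteins' genes had medians of 0.41 and 0.32 and the 3 membrane regulators 1.53 and 1.28, which became -0.20 and -0.26 against 0.053 and -0.18 with the GC trend removed.

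The rhFGF19 libraries differed little from each other in these genes. At 100 against 50 ng/mL, 0 of the 9 genes were past 2-fold in either direction, where 0.845% of the symbols were higher and 0.797% lower. The log2 differences ran from -0.31 for C5 to 0.071 for CD59, with a median of -0.11. All 6 soluble proteins' genes and CD55 were lower at 100 than at 50 ng/mL, and CD46 and CD59 were slightly higher. For scale, the robust SD of this difference over genes was 0.13 for all tested symbols, 0.26 for the 4096 with a mean under 2 FPKM and 0.10 for the 8326 others. The differences of C1S (-0.29) and CD55 (-0.25), both under 2 FPKM on average, were thus about as large as that spread among genes, which are not replicates.

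**Figure D2:**
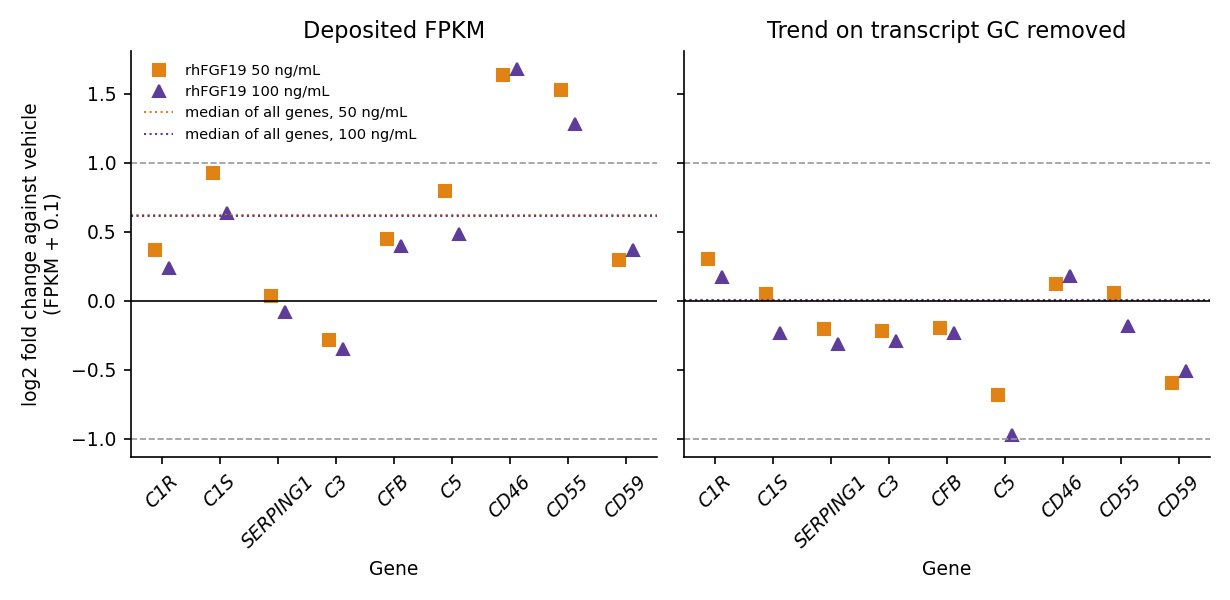
Log2 fold change of FPKM + 0.1 against vehicle for the 9 genes at 50 ng/mL (squares) and 100 ng/mL (triangles), from the deposited values on the left and after removal of the trend on transcript GC content on the right. Dotted lines are the medians of all tested symbols, dashed lines the 2-fold limits, which only CD46 and CD55 pass on the left and no gene passes on the right.

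Across the whole table the fold change against vehicle followed the GC content of the transcripts, and the 9 genes varied with it in the same direction, with 5 of the 9 below the fitted line at the lower and 7 at the higher dose. Transcript GC content, the median over the transcripts listed for a gene, was 37.8% for CD46, 39.9% for CD55 and 39.9% for C5, the lowest of the 9, and 56.6% for C3 and 55.4% for C1R, the highest. The Spearman correlation of the log2 fold change with GC content over the 9 genes was -0.83 at the lower and -0.90 at the higher dose. Over 12397 tested symbols it was -0.77 at both doses. Between the rhFGF19 libraries it was 0.017 over the 9 genes and 0.068 over all. These correlations are across genes that share libraries and are given as a description.

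Among the tested symbols, which do not include C5, 1105 had a GC content under 40%, CD46 and CD55 among them. Of these 1105, 90.9% were more than 2-fold higher than vehicle at the lower and 90.1% at the higher dose. Their median log2 fold change was 1.53 and 1.52. Of the 4481 symbols with at least 55%, where C3 and C1R lie, 3.97% and 3.35% were, and the medians were -0.37 and -0.36. In between, it was 54.5% and 53.5% of 6811 symbols. The CD46 and CD55 values were therefore close to those of other genes of their GC content. There was 1 vehicle library, so rhFGF19 and the preparation of that library cannot be told apart as sources of the trend.

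After this trend was removed by locally weighted regression, 0 of the 9 genes were past 2-fold in either direction at either dose, while 464 symbols were higher and 636 lower with 50 ng/mL, and 413 higher and 569 lower with 100 ng/mL. CD46 then had 0.12 and 0.18, and CD55 0.053 and -0.18, so the direction of CD55 at 100 ng/mL was turned. C1R was the highest of the 9 at 50 ng/mL with 0.30 and had 0.17 at 100 ng/mL. CD59 had -0.59 and -0.51, below genes of its GC content (48.9%), and CFB, at 50.9% GC, had -0.20 and -0.24. C3 had -0.22 and -0.29 and SERPING1 -0.20 and -0.31. Values of single genes after trend removal are approximate, because GC content and length are medians over listed transcripts that include short partial ones, as for C3, whose median listed length is 603 bases, far below that of the full mRNA. C1S had 0.046 and -0.23. The values of -0.68 and -0.98 for C5 carry the effect of the pseudocount on a gene listed at 0.05 FPKM. The medians of the 9 genes were -0.20 and -0.24, against 0.0075 and 0.0043 for all symbols.

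A list of 48 further complement genes gave the surroundings of the 9. Of these, 31 were in the table and 17 were not analysed here, among them the genes of the C1q chains. Only 6 passed the filter, and in the deposited values 0 of the 6 were past 2-fold in either direction at either dose, beside 39.5% and 38.6% of the tested symbols higher and 1.75% and 1.47% lower. Their medians were 0.12 and 0.15. C1QBP, a mostly mitochondrial protein that binds C1q, had 78.0, 84.7 and 88.3 FPKM in vehicle, 50 and 100 ng/mL. With the GC trend removed it was the 1 gene of the 6 past 2-fold lower, at -1.004 with the lower dose, where 636 of 12397 symbols were lower. At the higher dose 0 of the 6 were lower after this removal, beside 569 symbols. CLU and VTN encode clusterin and vitronectin, fluid-phase inhibitors of the terminal complex. CLU had 42.7, 46.7 and 46.1 FPKM, nearly level over the libraries. VTN had 5.91, 3.71 and 4.27 FPKM and was highest in vehicle, with log2 fold changes of -0.66 and -0.46. These passed 2-fold with quantile normalization (-1.22 and -1.003) and, for the lower dose, with the length trend removed (-1.12 and -0.92). C1RL, a C1r-like protease gene that overlaps C1R by 2907 bases on the same strand, had 0.93, 1.49 and 1.57 FPKM. Its log2 fold changes were 0.63 and 0.70, against -0.26 and -0.18 with quantile normalization and 0.77 and 0.83 with the GC trend removed. ITGAX, a subunit of a receptor for C3 fragments, had 1.26, 1.20 and 1.33 FPKM.

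The other 25 genes of this list had means under 0.5 FPKM, and 12 were listed at 0 in vehicle. C2, the classical counterpart of factor B, had 0.50, 0.36 and 0.49 FPKM. It overlaps CFB by 23 bases. C4A and C4B, near-identical copies between which reads can be split and whose values are therefore uncertain, had 0.38, 0.27 and 0.33 FPKM and 0.28, 0.23 and 0.20 FPKM. The terminal components in the table, apart from C5, reached at most 0.28 FPKM, far below the level of CD59, which acts on their assembly. C3AR1, a receptor for the small fragment of C3, had 0.16, 0.47 and 0.32 FPKM, and C5AR1, the corresponding receptor for that of C5, had 0.06, 0 and 0.04.

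Factors known to act on complement genes were read beside them. Of 14 such genes, 6 were more than 2-fold higher than vehicle at each dose, among them STAT3, NFKB1, IL1B, IFNGR1 and IL6ST, 0 were lower at the lower dose and 1, IRF9, at the higher dose. The share that was higher is near the 39.5% and 38.6% of all tested symbols, and is no result about these factors. Of all tested symbols, 1.75% were lower at the lower dose and 1.47% at the higher dose. CEBPA, counted among the 14, had a mean under 0.5 FPKM. STAT3, the transcription factor downstream of IL-6, had 5.68 FPKM in vehicle, 12.5 at the lower dose and 12.4 at the higher dose. It was lowest in vehicle, as were the cytokine genes IL6 (9.31, 18.4 and 17.3 FPKM) and IL1B (41.9, 102 and 95.7 FPKM). IRF1, an interferon-responsive factor, was nearly level at 19.0, 18.0 and 17.9 FPKM. CEBPB had 86.7, 71.7 and 70.5 FPKM and CEBPD 4.59, 6.28 and 5.04, both factors of the acute phase response. With the GC trend removed, 1 of the 14 was past 2-fold higher at 50 ng/mL (CEBPD, 1.07) and 0 at 100 ng/mL, beside 464 and 413 of 12397 symbols. At 50 ng/mL 0 of the 14 were lower and at 100 ng/mL 1 was (IRF9, -1.82), beside 636 and 569 symbols. IL6 turned to -0.20 and -0.27. The part of these factors in the values of C3, CFB or the regulators was not tested.

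Among the 10485 genes whose mean reached 1 FPKM, those whose pattern over the 3 libraries was most like C3, by Euclidean distance of centred log2(FPKM + 0.1), were SNAPC4 (0.0044), LRCH4 (0.0050) and SURF2 (0.0057). With only 3 libraries such closeness is common, since 545 genes lay within 0.1 of C3. For C5 no such genes are named, because its pattern on this scale is set largely by the pseudocount.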

How the data were processed

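Poly(A) mRNA of 3 LX-2 cultures was sequenced on an Illumina HiSeq instrument. FPKM values to 2 decimals are those the authors deposited, for 26108 Ensembl genes. According to the study's methods the reads were mapped with HISAT2. The submitters' processing notes name HISAT2 2.0, StringTie 1.3.0 and Bowtie 0.12.2 and the builds hg19 and mm8, without their roles. The coordinates overlapped GRCh38 positions for 99.9% of 25531 identifiers found in GENCODE release 29, and are given as GRCh38. Depth is unknown, because FPKM keeps no counts.

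Rows sharing a symbol were summed. Differences of log2(FPKM + 0.1) between libraries were taken for symbols whose mean reached 0.5 FPKM, and the limit of 2-fold is that of the study's methods. No test was run and no p-value computed. Transcript GC content and length are medians over the transcripts listed for a gene, short partial ones included (found for 99.8% of the tested symbols), and trends on them were subtracted after locally weighted regression (span 0.3). Motifs were searched in RefSeq promoters. The steps were tested on simulated data.

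The genes named are the 9 complement genes, the further complement genes whose mean reached 1 FPKM and up to 6 defining ones below it, the factors STAT3, IRF1, CEBPB, CEBPD, IL6 and IL1B, and the 3 genes most like C3 (those most like C5 were computed and left out). The marker genes, the overlapping genes LPCAT3, GPR108 and AL049629, IRF9, CEBPA, NFKB1, IFNGR1 and IL6ST were named after their values were seen. Values of 2 genes are not reported here. The members and lists were chosen with earlier results of these data known. The 12 alternative settings were other pseudocounts, filters, scalings, thresholds, handling of shared symbols and removal of GC or length trends, and 1 more, removal of both trends, was chosen after seeing the data. The software was Python 3.11.15, NumPy 2.4.6, pandas 2.3.3, SciPy 1.17.1, statsmodels 0.14.6 and Matplotlib 3.10.9.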

Additional observations from a re-analysis of the deposited data

Results flagged for a closer look

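For 3 genes among the 9, the further complement genes past the filter and the factors, the log2 fold changes of the deposited values against vehicle pointed in opposite directions at the 2 doses, and in each case the difference between the doses was not tested. SERPING1 had 0.032 at the lower and -0.083 at the higher dose, both near 0. ITGAX had -0.065 and 0.072. For both genes the opposite signs depended on the scaling: with quantile normalization SERPING1 had -0.74 and -0.85 and ITGAX -0.96 and -0.81, and with TPM SERPING1 had 0.16 and 0.016 and ITGAX 0.056 and 0.18. IRF9, part of the interferon-activated factor that binds ISRE motifs, had 0.023 at the lower and -1.87 at the higher dose, from 3.66 FPKM in vehicle, 3.72 at the lower dose and 0.93 at the higher dose. IRF9 was the factor counted as lower at 100 ng/mL, and with the GC trend removed its values were 0.075 and -1.82. The hepatocyte marker ALB, outside these lists, had 0.20 and -0.18.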

How the results depend on the processing

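Of the results that answer a comparison, 160 values under the alternatives stayed within 1.5 times the reported count or within 0.13, the robust SD between the rhFGF19 libraries, and 95 did not. The values below are those 95, at 50 and then 100 ng/mL against vehicle unless stated, and why they moved was not tested, except where the setting itself shows it. Some counts of symbols higher that stayed within these limits are added beside counts of complement genes. Trend removal and quantile normalization centre the fold changes, so a median near 0 follows from them.

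With a pseudocount of 0.01, 4 of the 9 complement genes were past 2-fold higher at 50 ng/mL, where 5139 of the 12422 symbols were. With a pseudocount of 1, which shrinks low genes, 1 was at 50 and 1 at 100 ng/mL, their medians were 0.30 and 0.26, 2189 and 2074 symbols were higher and 76 and 60 lower, the all-symbol medians were 0.41 and 0.40, and 21 symbols were higher and 29 lower at 100 against 50 ng/mL. Without a filter on low values, 725 and 716 symbols were lower, the all-symbol medians were 0.31 and 0.31, 881 symbols were higher and 805 lower at 100 against 50 ng/mL, and the median of the further complement genes at 100 ng/mL was 0. With a minimum mean of 1 FPKM, 36 symbols were higher and 41 lower at 100 against 50 ng/mL.

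With TPM, 4 complement genes and 5527 symbols were higher at 50 ng/mL, 143 symbols were lower and the all-symbol median was 0.77. With the median ratio to vehicle set to 0 over the genes of at least 1 FPKM in every library, 781 and 605 symbols were lower, the medians of the 9 genes were 0.22 and 0.17, those of all symbols 0.40 and 0.40, and those of the further complement genes -0.10 and -0.078. With quantile normalization 0 and 0 complement genes were higher, their medians were 0.24 and 0.10, 1142 and 1046 symbols were higher and 1223 and 1121 lower, the all-symbol medians were 0.10 and 0.085, and those of the further complement genes -0.36 and -0.22.

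With the GC trend removed, 0 and 0 complement genes were higher, with medians of -0.20 and -0.24, and CD55 at 100 ng/mL turned to -0.18. There were 464 and 413 symbols higher and 636 and 569 lower, all-symbol medians of 0.0075 and 0.0043, and medians of -0.14 and -0.041 for the further complement genes. With the length trend removed, 0 and 0 complement genes were higher, with medians of -0.075 and -0.081. There were 1736 and 1681 symbols higher and 2014 and 1882 lower, all-symbol medians of 0.046 and 0.043, and medians of -0.31 and -0.28 for the further complement genes. With both trends removed, chosen after seeing the data, 0 and 0 complement genes were higher. At 100 ng/mL 1, C5, was past 2-fold lower at -1.13, although its plain ratio to vehicle there was 2.2. This C5 value carries the effect of the pseudocount on a gene listed at 0.05 FPKM in vehicle, below the filter of the counted symbols. The medians of the 9 genes were -0.11 and -0.20, and CD55 at 100 ng/mL turned to -0.20. There were 486 and 429 symbols higher and 518 and 462 lower, all-symbol medians of -0.00044 and -0.0033, and medians of -0.12 and -0.021 for the further complement genes.

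At a threshold of 1.5 times, 4 complement genes and 6331 symbols were higher at 50 ng/mL, 1679 and 1553 symbols were lower, and 272 were higher and 279 lower at 100 against 50 ng/mL. At a threshold of 2 on the log2 scale, 0 and 0 complement genes were higher, 222 and 186 symbols were higher and 35 and 27 lower, and 21 were higher and 20 lower at 100 against 50 ng/mL. Keeping only the highest row per symbol moved none of these results. No paired analysis was possible because each group has 1 library and no test was run.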

Other observations

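CD59 and C1QBP had high levels and the larger negative values after removal of the GC trend among the genes past the filter in the 2 complement lists, -0.59 and -0.51 for CD59 and -1.0 and -0.92 for C1QBP, although both were slightly higher than vehicle in the deposited values. AL049629, which overlaps CD59 on its strand, had 2.06 FPKM in vehicle, 2.20 at the lower dose and 5.30 at the higher dose, while CD59 itself had nearly the same level in both rhFGF19 libraries. GPR108, which overlaps C3 on its strand, and C3 were both highest in vehicle.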
